A study of Mus musculus with 6 samples.

Results

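The messenger RNAs for the protein-making machinery of the cytosol were compared between leukemic stem cells and bulk leukemic cells of a humanized mouse model of acute myeloid leukemia. They comprise 139 of the 13892 rows of the deposited expression table and were chosen by gene symbol alone, without use of any measured value. The symbols were those of the ribosomal proteins of both subunits (RPS, RPL, RPLP0 to RPLP2 and RPSA) and of the eukaryotic initiation and elongation factors (EIF and EEF). Pseudogenes, ribosomal S6 kinases, eIF2 kinases and Y-linked copies were left out. The set held 82 ribosomal protein genes, namely 31 of the small subunit, 43 of the large subunit, 3 of the stalk and 5 paralogs, and 57 rows of translation factors. One of these rows was an antisense transcript (EIF3J-AS1) and one a fused read-through transcript (EEF1E1-BLOC1S5), and both were counted but not described further.

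Both groups came from the bone marrow of the same 3 moribund NSG mice, an immunodeficient strain that accepts human blood-forming cells. Each mouse carried a leukemia grown from its own transduction of human hematopoietic stem cells with NPM1c, the cytoplasmic mutant of nucleophosmin, with GFP as its surrogate. LSC libraries (n = 3) were from GFP+ CD33+ CD123+ cells, the gate that the study names leukemic stem cells, and bulk libraries (n = 3) from GFP+ CD33+ cells. All 6 libraries therefore carry the NPM1c transgene, and there is no NPM1c-free group. The bulk gate as labelled does not exclude CD123+ cells. Mouse ages and the promoter of the transgene are not given in the sources used here. IL3RA, the gene for CD123, stood at 139.5, 48.0 and 135.5 CPM (reads scaled to the normalised library size) in the LSC libraries of mice 1, 2 and 3, against 1.56, 2.14 and 2.39 CPM in the bulk libraries of the same mice. Every LSC library thus lay above every bulk library for the gene of the sorted marker.

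A ribosome is built from a small subunit, which reads the messenger RNA, and a large subunit, which joins the amino acids, and most ribosomal proteins are needed for every ribosome. Initiation factors bring the first tRNA, the messenger RNA and the subunits together, with the eIF4 factors acting at the cap, the eIF2 factors delivering the initiator tRNA and eIF3 acting as a scaffold on the small subunit. Elongation factors then move the ribosome along, and several factors are switched by kinases and binding proteins that lower translation in stressed or nutrient-poor cells. Ribosomal protein messenger RNAs and many of these factors begin with a terminal oligopyrimidine (TOP) tract, through which the TOR kinase controls their translation. The libraries measure messenger RNA levels only and hold no measure of translation or of protein.

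The libraries held 14933494, 11220753 and 10669560 reads in LSC and 11420127, 11753494 and 13148257 reads in bulk, in the order of mice 1, 2 and 3. The 10 MTRNR2L rows, nuclear sequences resembling mitochondrial ribosomal RNA, took 45.6%, 28.5% and 30.1% of the LSC reads, against 70.0%, 47.8% and 27.2% of the bulk reads. Bulk replicate 1 thus had the fewest reads for all other genes, and 3 reads were worth 0.514 CPM there, against 0.190 to 0.254 CPM in the other 5 libraries. The 6 libraries were unlike in cell markers as well. All 9 plasmacytoid dendritic cell markers were higher in LSC without a block. Their summed levels were 2683, 1476 and 2713 CPM in LSC against 108, 97.8 and 276 CPM in bulk. These 9 include IL3RA, the gene of the sorted marker, which is not independent of the gate. Of 8 erythroid markers 3 were lower in LSC and 0 higher (sums of 19.6 to 106 CPM in LSC and 130.1 to 448 CPM in bulk), of 8 B-lineage markers 2 were lower and 0 higher (130.2 to 211 CPM in LSC and 145 to 1089 CPM in bulk), and of 7 monocyte markers 1 was lower and 1 higher (1109 to 2716 CPM in LSC and 3537 to 5600 CPM in bulk). Of 10 neutrophil granule markers and of 6 T and NK cell markers 0 passed in either direction (111 to 1522 CPM in LSC and 134 to 4155 CPM in bulk for the first list, 105 to 139.8 CPM in LSC and 78.5 to 111 CPM in bulk for the other). Of 10 proliferation genes 5 were lower in LSC and 0 higher, with sums of 887 to 1487 CPM in LSC against 3449 to 7043 CPM in bulk. With the mouse as a block (the libraries being paired by mouse, as described further on), the counts lower in LSC were 6 of 8 erythroid, 4 of 8 B-lineage, 5 of 7 monocyte, 5 of 10 neutrophil granule and 7 of 10 proliferation genes, and those higher were 9 of 9 plasmacytoid dendritic, 1 B-lineage (BLNK) and 1 monocyte gene (MS4A6A). The 5 neutrophil granule genes, MPO, ELANE, AZU1, PRTN3 and CTSG, were each lower in LSC in 3 of 3 mice. Of the T and NK cell markers 0 passed in the blocked limma fit, and 0 had an unadjusted p under 0.05 without the block. Markers listed at 0 reads were AZU1, PRTN3, ALAS2, AHSP and EPOR in LSC replicate 3, CD3E in LSC replicate 2, LILRA4 in bulk replicates 1 and 2, GZMB in bulk replicate 3 and CD8A in bulk replicate 1. The part of these differences in the results that follow was not tested. In sorted pools, fewer cells of one type and less RNA per cell cannot be told apart.

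All 139 rows passed the filter on low values (at least 1 CPM in at least 3 libraries). In the comparison of LSC with bulk, 2 of the 139 were higher in LSC at an adjusted p under 0.05 and 0 were lower (limma, two-sided, Benjamini-Hochberg over 13755 genes). The 2 were EEF2K, the kinase that inactivates elongation factor 2, and EIF4A3, a DEAD-box helicase that is a core part of the exon junction complex. Across all genes tested, 2.71% were higher in LSC and 1.33% lower. No ribosomal protein gene passed in either direction, and 10 of the 82 (12.2%) had an unadjusted p under 0.05. Of the 57 translation factor rows, 10 (17.5%) had one, and of all genes tested 20.2%. With voom on the reads recovered from the deposited values, 0 ribosomal protein genes passed, and 1 translation factor was higher and 0 lower.

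Because LSC and bulk libraries with the same number come from 1 mouse, the same fit was also made with the mouse as a block, which moved the counts by more than 1.5 times. With the block, 8 of 82 ribosomal protein genes were higher in LSC and 1 was lower, which is 9.76% and 1.22% of them. Across all genes tested, 8.25% were higher and 7.71% lower with the block. The share of ribosomal protein genes that were higher was thus near that of all genes, and the share that were lower was smaller. Of the translation factor rows, 4 of 57 (7.02%) were higher in LSC and 7 of 57 (12.3%) were lower. Without mouse 1 the blocked fit called 0 ribosomal protein genes and 1 translation factor higher and 0 and 2 lower, without mouse 2 it called 4 and 1 higher and 0 and 1 lower, and without mouse 3 it called 12 and 4 higher and 5 and 10 lower. Over all genes the same fits called 2.81%, 3.23% and 12.7% higher and 2.50%, 2.15% and 11.4% lower, in the order of the mouse left out. The translation factor kept as higher without mouse 1 or mouse 2 was EEF2K, and those lower were EIF4EBP2 and EIF5B without mouse 1 and EIF4E3 without mouse 2.

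**Figure D1:**
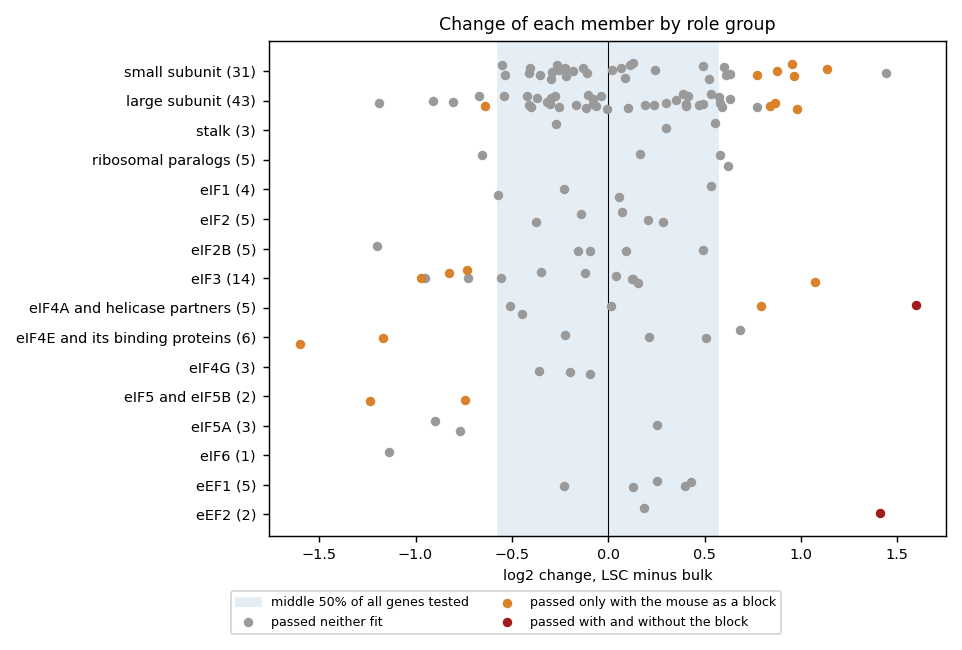
Fitted log2 change (LSC minus bulk, x axis) of each gene by role group (y axis, number of genes in brackets), coloured by the fit in which it passed an adjusted p of 0.05; the shaded band lies between the quartiles of all genes tested. Most points lie inside the band, only EEF2K and EIF4A3 passed without the block, and EIF3CL and RPL39L, each with a library at 0 reads, are not drawn.

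The fitted log2 changes of the ribosomal protein genes were small and centred near 0. Their median was 0.04, with quartiles of -0.30 and 0.53, against -0.004 for all genes tested (quartiles -0.57 and 0.57). Of the 82 genes, 42 had a positive and 40 a negative fitted change, and 61.0% lay within 0.5 of 0 on the log2 scale, against 44.8% of all genes. The translation factor rows had a median of -0.12, with quartiles of -0.57 and 0.21, of which 25 were positive and 32 negative. A fitted change beyond 1 in either direction was found for 4 ribosomal protein genes (4.88%) and 9 translation factor rows (15.8%), against 26.9% of all genes. These rows were also better expressed than most genes. The median per library was 6.19 to 6.91 log2 CPM for ribosomal proteins, 5.19 to 5.73 for translation factors and 3.46 to 3.64 for all genes. The part of this in the narrower range of changes was not tested. The groups did not overlap, with all LSC values above all bulk values, for 9 ribosomal protein genes and 6 translation factors, and the other way round for 3 and 7, while across all genes 13.2% and 11.9% did not overlap.

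Among the 31 small subunit genes, 5 (16.1%) were higher in LSC with the mouse as a block and 0 were lower. The median log2 change of the 31 was 0.07. Over all genes 8.25% were higher and 7.71% lower with the block. These shares are the background for the groups below as well, several of which hold few genes. The 5 included RPS20, RPS3A and RPS27, structural proteins of the small subunit. RPS20 was at 319, 179.6 and 269 CPM in the LSC libraries of mice 1, 2 and 3, against 142, 128 and 114 CPM in bulk. The log2 change was 0.97 (SE 0.29, limma adjusted p 0.106 without and 0.019 with the block). The LSC library of mouse 2 was the lowest of its group and the groups did not overlap.

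RPS3A was at 1108, 815 and 1216 CPM in LSC against 602, 478 and 769 CPM in bulk, which is a log2 difference of 0.77 (limma adjusted p 0.188 without and 0.0191 with the block). Mouse 2 was lowest in both populations, so that the difference within each mouse, 0.88, 0.77 and 0.66, varied less than the levels did. RPS27 stood at 408, 422 and 824 CPM in LSC against 127, 253 and 612 CPM in bulk (log2 change 0.95, adjusted p 0.35 without and 0.0345 with the block). The groups overlapped, although LSC was above bulk in every mouse. RPS14, whose loss of 1 copy is known from myelodysplastic syndrome with a deletion of chromosome arm 5q, had the largest fitted change of the small subunit, 1.44. Its levels were 92.5, 27.3 and 57.8 CPM in LSC against 25.2, 28 and 10.3 CPM in bulk, with a log2 difference of -0.04 in mouse 2, and it passed neither fit (adjusted p 0.171 without and 0.0534 with the block). The most negative change of the small subunit was that of RPS15, -0.55, followed by that of RPS25, -0.53, and both passed neither fit (adjusted p with the block 0.242 and 0.068).

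Among the 43 large subunit genes, 3 (6.98%) were higher in LSC with the block and 1 (2.33%) was lower, and the median log2 change was -0.04. RPL23, which like a few other ribosomal proteins can bind the p53 regulator MDM2 when it is free of the ribosome, was at 244, 210.2 and 340.2 CPM in LSC against 139.9, 122 and 169 CPM in bulk. The groups did not overlap, and the log2 changes within mice 1, 2 and 3 were 0.80, 0.78 and 1.01. The fitted log2 change was 0.86 (SE 0.29), with a limma adjusted p of 0.135 without and 0.0163 with the block. RPL23A, which lies near the exit of the peptide tunnel, was at 249.9, 92.3 and 240.5 CPM in LSC against 115, 67.8 and 93.1 CPM in bulk (log2 change 0.98, adjusted p 0.229 and 0.0236). The LSC library of mouse 2 was below the bulk libraries of mice 1 and 3, so the groups overlapped. RPL37A was at 127, 113 and 147 CPM in LSC against 59.3, 87.8 and 70.9 CPM in bulk, with no overlap (log2 change 0.84, adjusted p 0.134 and 0.0379).

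The large subunit gene that was lower was RPL7, at 189.9, 204 and 201 CPM in LSC against 333, 326 and 273 CPM in bulk. Both groups were tight and apart, with a log2 change of -0.64 (SE 0.24, limma adjusted p 0.185 without and 0.0469 with the block). The RPL7 call was lost when the blocked fit was scaled to reads outside the MTRNR2L rows (adjusted p 0.067). RPL4 stood at 150.3, 114 and 106 CPM in LSC against 174, 198 and 281 CPM in bulk, also without overlap, but passed neither fit (log2 change -0.81, adjusted p 0.166 and 0.0582). RPL36 had the most negative fitted change of the ribosomal proteins, -1.19, at 7.26, 4.46 and 5.71 CPM in LSC against 18.3, 20.1 and 5.97 CPM in bulk, and passed neither fit (0.248 and 0.0990). In mouse 3 its LSC and bulk levels were alike. Against the slightly negative median of the large subunit, a further 6 genes had fitted log2 changes over 0.5 and passed neither fit, namely RPL27 (0.54), RPL34 (0.58), RPL13 (0.58), RPL27A (0.59), RPL35A (0.63) and RPL32 (0.77). Of these RPL13 and RPL27A had groups that did not overlap. Most ribosomal protein genes have many processed pseudogenes of near-identical sequence, so the split of reads between a gene and its copies is uncertain for the ribosomal protein values.

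The 3 stalk genes encode the flexible arm of the large subunit that recruits the elongation factors. RPLP0, the base of the arm, was at 205, 97.5 and 125 CPM in LSC against 138, 84.7 and 67.7 CPM in bulk, which is a log2 difference of 0.55 that passed neither fit (limma adjusted p 0.444 and 0.111). RPLP1 and RPLP2, which bind to it in pairs, had fitted changes of 0.30 and -0.27 and passed neither fit. In all 3 genes the LSC library of mouse 2 was the lowest of the LSC libraries. Of the ribosomal proteins outside the symbol rule, FAU, GNB2L1 (the gene for RACK1) and RPL36AL had fitted log2 changes of 0.34, -0.11 and 0.31 and passed neither fit.

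Paralogs of ribosomal proteins can take the place of their usual partner in some tissues. None of the 5 passed either fit. RPL22L1, the paralog of RPL22, was at 31.5, 21.5 and 20.1 CPM in LSC against 25.5, 12.6 and 12.7 CPM in bulk (log2 change 0.58, limma adjusted p 0.445). RPL7L1 had 19.7, 46.2 and 26.2 CPM in LSC against 7.55, 35.2 and 24.5 CPM in bulk (0.62, adjusted p 0.577), so the spread between mice exceeded that between populations. RPL39L had no read in the LSC library of mouse 3, and its 61, 17 and 0 reads in LSC against 16, 5 and 13 reads in bulk give no usable fold change. RPL26L1 was at 8.07, 5.54 and 0.676 CPM in LSC against 3.27, 5.52 and 6.55 CPM in bulk, so its direction differed between mice (-0.66, adjusted p 0.712). RPS27L, a target of p53, was at 8.44, 15.0 and 20.5 CPM in LSC against 11.8, 9.25 and 16.8 CPM in bulk (0.17, adjusted p 0.858), again with overlap.

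**Figure D2:**
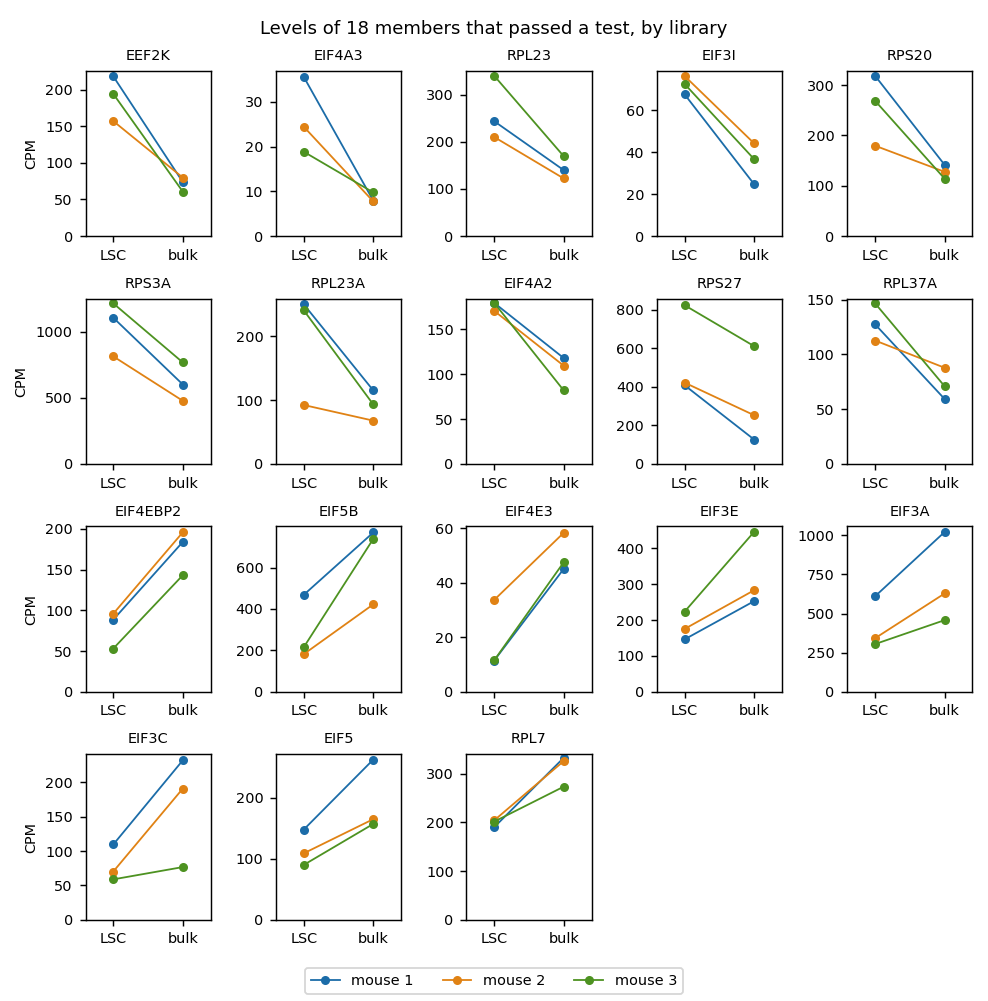
CPM (y axis, from 0) of 18 of the 20 genes that passed a test, in LSC (left) and bulk (right) of each panel, with a line joining the 2 populations of each mouse. Lines run downward from LSC to bulk in all 3 mice for the 10 genes drawn that were higher in LSC, such as EEF2K and RPS20, and upward for the 8 lower ones, such as EIF4EBP2 and RPL7.

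Of the 5 genes of the eIF4A helicase group, 1 passed the unblocked fit and 2 the blocked one, all higher in LSC. EIF4A3 was at 35.6, 24.4 and 18.8 CPM in LSC against 7.90, 7.73 and 9.74 CPM in bulk, or 26.3 ± 8.52 CPM in LSC against 8.46 ± 1.12 CPM in bulk (SD, n = 3 each). Every LSC library lay above every bulk library, and the log2 change was 1.59 (SE 0.37, limma adjusted p 0.0463 without and 0.0144 with the block). That call was lost when any single library was left out, with an adjusted p of 0.127, 0.0843 and 0.0686 without LSC replicate 1, 2 or 3 and of 0.160, 0.132 and 0.0662 without bulk replicate 1, 2 or 3. It was lost also under quantile normalization (0.0521) and voom (0.0670).

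EIF4A1 and EIF4A2 are the helicases that unwind the messenger RNA at the cap. EIF4A2 was at 179, 171 and 179 CPM in LSC against 118, 109 and 81.9 CPM in bulk, which is a log2 difference of 0.79 (SE 0.26, limma adjusted p 0.135 without and 0.0326 with the block), with no overlap. EIF4A1, its close paralog, was at 35.2, 55.3 and 41.2 CPM in LSC against 44.2, 51.9 and 34.0 CPM in bulk, with a log2 change of 0.01 (adjusted p 0.986). The helicase partner EIF4B, an RNA-binding cofactor and a TOP messenger RNA, was at 130.2, 109.5 and 167 CPM in LSC against 226, 196 and 155 CPM in bulk and passed neither fit (-0.51, adjusted p 0.346). Its LSC level was below bulk in mice 1 and 2 and not in mouse 3.

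In the cap-binding group, 2 of 6 genes were lower in LSC with the block and 0 were higher. EIF4EBP2, a repressor that holds the cap-binding protein eIF4E until the TOR kinase releases it, was at 88.5, 95.9 and 53.1 CPM in LSC against 184, 196 and 143 CPM in bulk. Both groups were apart, and the log2 changes within mice 1, 2 and 3 were -1.05, -1.03 and -1.43. The fitted log2 change was -1.17 (SE 0.31), with a limma adjusted p of 0.0757 without and 0.0067 with the block. EIF4E3, an unusual member of the eIF4E family, was at 11.5, 33.7 and 11.5 CPM in LSC against 45.0, 58.3 and 47.5 CPM in bulk (log2 change -1.60, SE 0.45, adjusted p 0.0838 and 0.0111). Here the LSC library of mouse 2 was the highest of its group and still below all bulk libraries. EIF4E itself, the main cap-binding protein, was at 35.5, 29.3 and 32.7 CPM in LSC against 46.9, 28.4 and 40.8 CPM in bulk (-0.23, adjusted p 0.718). EIF4EBP1, the sister repressor, was at 1.79, 3.76 and 3.30 CPM in LSC against 1.73, 2.81 and 1.11 CPM in bulk (0.68, adjusted p 0.590). EIF4ENIF1, the carrier that takes eIF4E into the nucleus, was at 35.2, 32 and 26.7 CPM in LSC against 25.5, 24.3 and 16.8 CPM in bulk; the groups did not overlap, but it passed neither fit (0.51, adjusted p 0.406 and 0.192). EIF4E2, a cap-binding relative that competes with eIF4E, had a fitted change of 0.21 and passed neither. The 3 eIF4G genes, which form the scaffold between the cap and the small subunit, had fitted changes of -0.36 (EIF4G1), -0.20 (EIF4G3) and -0.10 (EIF4G2), all with an adjusted p of at least 0.528 in both fits.

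Of the 14 eIF3 rows, 3 were lower and 1 was higher in LSC with the block, and their median log2 change was -0.45. EIF3E was at 146, 175 and 224 CPM in LSC against 253, 283 and 446 CPM in bulk, with no overlap (log2 change -0.83, SE 0.31, limma adjusted p 0.180 and 0.0188). EIF3A, the largest subunit and part of the core, was at 610.1, 342 and 305 CPM in LSC against 1021, 628 and 458 CPM in bulk (-0.73, adjusted p 0.314 and 0.0247), and the groups overlapped, with mouse 1 high in both populations. EIF3C, another core subunit, was at 109.7, 70.3 and 58.8 CPM in LSC against 232, 191 and 76.7 CPM in bulk (-0.97, adjusted p 0.254 and 0.0297). EIF3CL is a near-identical copy of EIF3C and was at 0 reads in LSC replicates 1 and 2 and in bulk replicate 1, against 80, 145 and 147 reads in LSC replicate 3 and bulk replicates 2 and 3, so the split between the 2 genes is uncertain. Their sum was 109.7, 70.3 and 64.7 CPM in LSC against 232, 203 and 86.2 CPM in bulk, a mean log2 difference of -1.01 with LSC lower in 3 of 3 mice (exact permutation test, two-sided, p = 0.2; the smallest p this design allows is 0.1).

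Fitted changes were positive for 5 of the 14 eIF3 rows and negative for 9. The row that was higher in LSC with the block was EIF3I, a peripheral subunit with a propeller fold. EIF3I was at 67.5, 76.2 and 72.4 CPM in LSC against 24.7, 44.1 and 36.6 CPM in bulk. Its groups were apart, with a log2 change of 1.07 (SE 0.31, limma adjusted p 0.0916 without and 0.0181 with the block). EIF3J and EIF3G also had groups that did not overlap, with LSC lower, at fitted changes of -0.73 and -0.95, and passed neither fit (adjusted p with the block 0.0652 and 0.245). EIF3B, at 14.1, 16.8 and 3.67 CPM in LSC against 19.9, 21.9 and 6.35 CPM in bulk, was low in both populations of mouse 3 (-0.56, adjusted p 0.681 and 0.246).

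Both genes of the subunit-joining group were lower in LSC with the block. EIF5B, the GTPase that joins the large subunit to the small one, was at 468, 182 and 215 CPM in LSC against 769, 422 and 738 CPM in bulk (log2 change -1.24, SE 0.41, limma adjusted p 0.131 without and 0.00887 with the block). LSC was below bulk in every mouse, but the LSC library of mouse 1 was above the bulk library of mouse 2. EIF5, which triggers GTP hydrolysis by eIF2, was at 148, 109 and 89.8 CPM in LSC against 262, 165 and 157 CPM in bulk, with no overlap (-0.74, adjusted p 0.227 and 0.0311). EIF6, which keeps the subunits apart, was at 3.94, 2.49 and 1.55 CPM in LSC against 5.33, 10.01 and 3.03 CPM in bulk and passed neither fit (-1.14, adjusted p 0.337 and 0.157). EIF5A and EIF5A2, the factors that carry the modified amino acid hypusine, had changes of -0.77 and -0.90 and passed neither fit.

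None of the genes of the start-codon and initiator tRNA factors passed either fit. For eIF1, eIF2 and eIF2B together this was 0 of 4, 0 of 5 and 0 of 5 genes, with median log2 changes of -0.09, 0.07 and -0.09. EIF1AX, which helps the ribosome scan for the start codon, was at 44.0, 19.9 and 30.4 CPM in LSC against 57.4, 40.3 and 37.6 CPM in bulk (-0.57, limma adjusted p 0.418), and EIF1 was at 133, 74.9 and 90.2 CPM in LSC against 89.7, 67.8 and 49.0 CPM in bulk (0.53, adjusted p 0.413). EIF1B, the paralog of EIF1, had a fitted change of 0.06 (adjusted p 0.954). EIF2S2, a subunit of eIF2, was at 86.7, 64.2 and 66.4 CPM in LSC against 108, 91.5 and 81.8 CPM in bulk (-0.37, adjusted p 0.476). EIF2B2, a subunit of the exchange factor that recharges eIF2, had a fitted change of -1.20, at 2.01, 9.40 and 0.676 CPM in LSC against 7.21, 5.02 and 4.31 CPM in bulk, and the LSC libraries spanned the bulk ones (adjusted p 0.472).

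Among the elongation factors, EEF2K was at 218, 157 and 194 CPM in LSC against 73.6, 79.8 and 60.5 CPM in bulk, or 189.7 ± 30.8 CPM in LSC against 71.3 ± 9.83 CPM in bulk (SD, n = 3 each). All LSC libraries were above all bulk libraries, and the log2 changes within mice 1, 2 and 3 were 1.57, 0.98 and 1.68. The fitted log2 change was 1.41 (SE 0.27), with a limma adjusted p of 0.0235 without and 0.00428 with the block. Without the block the call was lost without LSC replicate 1 (limma adjusted p 0.0783) or LSC replicate 3 (0.0823). It was lost also without bulk replicate 1 (0.0861) or bulk replicate 2 (0.0552), and without mouse 1, 2 or 3 (0.238, 0.0819 and 0.108). With the block it was kept without mouse 1 or 2 (0.0418 and 0.0256) and without mouse 3. Those blocked fits hold only 2 within-mouse differences per gene. EEF2, the substrate of this kinase, was at 373, 191 and 269 CPM in LSC against 311, 263 and 159 CPM in bulk and passed neither fit (0.19, adjusted p 0.801). EEF1A1, which delivers the charged tRNAs, was at 2975, 1926 and 2679 CPM in LSC against 2378, 2255 and 1697 CPM in bulk (0.25, adjusted p 0.678), EEF1B2, its exchange factor, at 222, 126 and 223 CPM in LSC against 177, 124 and 125 CPM in bulk (0.40, adjusted p 0.512), and none of the 5 eEF1 genes passed either fit, with a median change of 0.25.

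Within-library ratios of related genes, which do not depend on how a library was scaled, were compared for 15 pairs. The ratio of EEF2K to EEF2 was -0.78, -0.28 and -0.47 on the log2 scale in LSC against -2.08, -1.72 and -1.40 in bulk, a difference of 1.22. The ratio of EIF4A1 to EIF4A2 was -2.35, -1.62 and -2.12 in LSC against -1.42, -1.08 and -1.27 in bulk, a difference of -0.78. The ratio of EIF4EBP1 to EIF4EBP2 was -5.63, -4.67 and -4.01 in LSC against -6.73, -6.12 and -7.01 in bulk, a difference of 1.85, of which EIF4EBP1 rests on few reads. For these 3 pairs and for EIF4A3 over EIF4A1 (difference 1.58) the 2 groups did not overlap, and each had an exact permutation p of 0.1, the smallest that 3 libraries against 3 allow, and an adjusted p of 0.333 over the 15 pairs. The log2 ratio of EIF4E3 to EIF4E was lower in LSC in 3 of 3 mice, by a mean of -1.38, but the groups overlapped (exact permutation p 0.2). RPL7L1 over RPL7 was higher in 3 of 3 mice by a mean of 1.26 (exact permutation p 0.2). In the other direction, EIF1B over EIF1 and RPS27L over RPS27 were lower in LSC in 3 of 3 mice, by means of -0.48 and -0.79 (exact permutation p 0.2 each, groups overlapping). The other 7 pairs had exact permutation p-values of 0.2 to 0.9, and 6 of these 7 changed direction between mice.

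**Figure D3:**
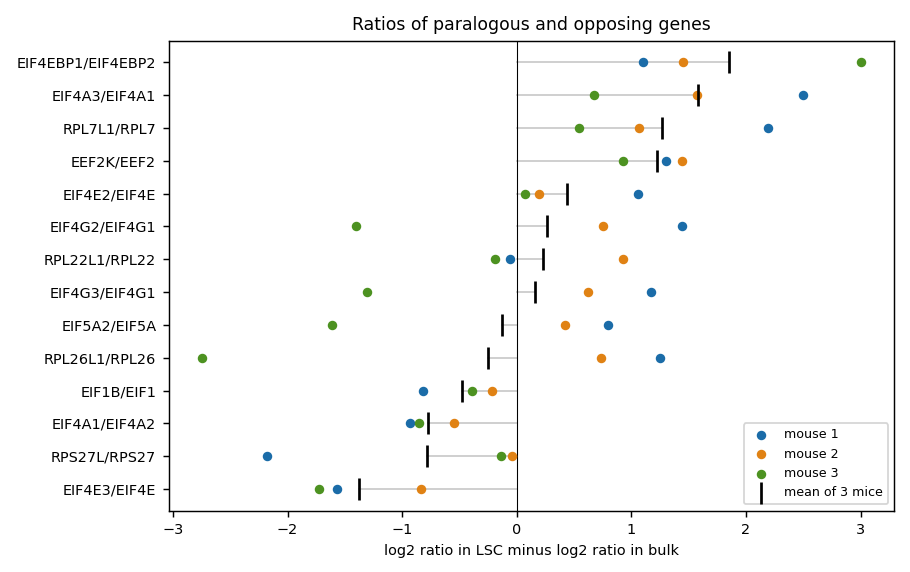
Difference of the within-library log2 ratio of 2 genes, LSC minus bulk (x axis), for 14 pairs (y axis) in each mouse (points) and as the mean of the 3 mice (bars). EIF4EBP1 over EIF4EBP2, EIF4A3 over EIF4A1 and EEF2K over EEF2 lie to the right of 0 in every mouse and EIF4A1 over EIF4A2 to the left; RPL39L over RPL39 is not drawn because of a library with 0 reads.

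The share of the spread that lay between mice was larger for these genes than for all genes tested. This share has 2 degrees of freedom and that between populations 1, so the first tends to be the larger one when neither has an effect, and both are given beside those of all genes. Summed over the 82 ribosomal protein genes, 54.4% of the variance of the log2 values lay between mice and 19.1% between LSC and bulk, and for the translation factor rows the shares were 55.0% and 24.4%. Over all genes tested the shares were 38.2% between mice and 41.6% between populations. Such sums give more weight to genes with a wide spread, such as EIF3CL and RPL39L, which had libraries without reads. The median share per gene between mice was 51.7% for ribosomal proteins, 51.9% for translation factors and 43.8% for all genes. Between populations the medians were 15.2%, 21.2% and 26.8% in the same order. The share between mice was the larger one for 61 of the 82 ribosomal protein genes (74.4%) and 38 of the 57 translation factor rows (66.7%), against 60.5% of all genes. RPL11, which can bind MDM2, had the largest share of variance between mice among these genes, with 94.2, 183 and 129 CPM in LSC against 84.4, 201 and 105 CPM in bulk and 95.2% of its variance between mice. RPS18 was at 27.3, 89.7 and 33.1 CPM in LSC against 35.3, 111 and 43.1 CPM in bulk, and was thus high in both populations of mouse 2. RPS24 was high in mouse 1 instead, at 713, 198 and 462 CPM in LSC against 976, 343 and 460.3 CPM in bulk. RPS26 was highest in mouse 3, at 8.96, 13.7 and 50.2 CPM in LSC against 14.4, 22.3 and 35.4 CPM in bulk. The mice differ in their transduced cells and in their host, and which of these moves with the levels cannot be told apart.

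**Figure D4:**
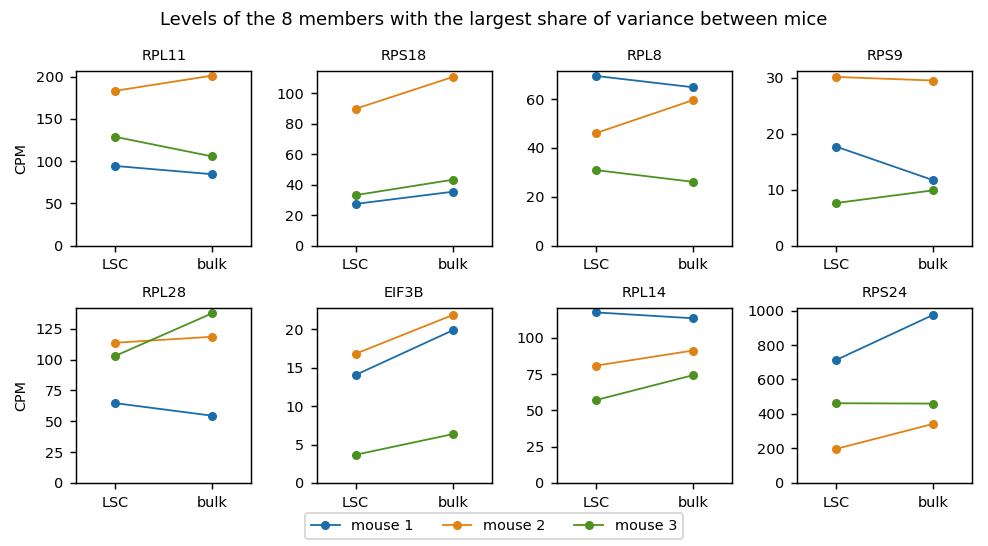
CPM (y axis, from 0) of the 8 genes with the largest share of variance between mice, in LSC (left) and bulk (right) of each panel, with a line joining the 2 populations of each mouse. For RPL11 and RPS18 mouse 2 is highest in LSC and in bulk, and the lines of the 3 mice do not cross.

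The difference between LSC and bulk also varied from mouse to mouse for the ribosomal proteins as a group. Within mouse 1 the median log2 difference of the 82 genes was 0.40, with 66 of 82 higher in LSC; within mouse 2 it was -0.27, with 25 of 82 higher; and within mouse 3 it was 0.29, with 52 of 82 higher. The medians of all genes tested were 0.09, 0.01 and -0.03 in the same mice. After scaling to reads outside the MTRNR2L rows the ribosomal protein medians were 0.37, -0.24 and 0.46 (all genes 0.05, 0.04 and 0.14), and after upper-quartile rescaling 0.29, -0.33 and 0.31, so the sign in each mouse was the same under these scalings. The translation factor rows had medians of 0, -0.38 and -0.03. Of the 82, 19 ribosomal protein genes were higher in LSC in all 3 mice (23.2%) and 7 lower (8.54%), against 27.3% and 25.8% of all genes tested, and 56 differed in direction between mice. Of the 57 translation factor rows, 11 (19.3%) were higher and 15 (26.3%) lower in all 3 mice.

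**Figure D5:**
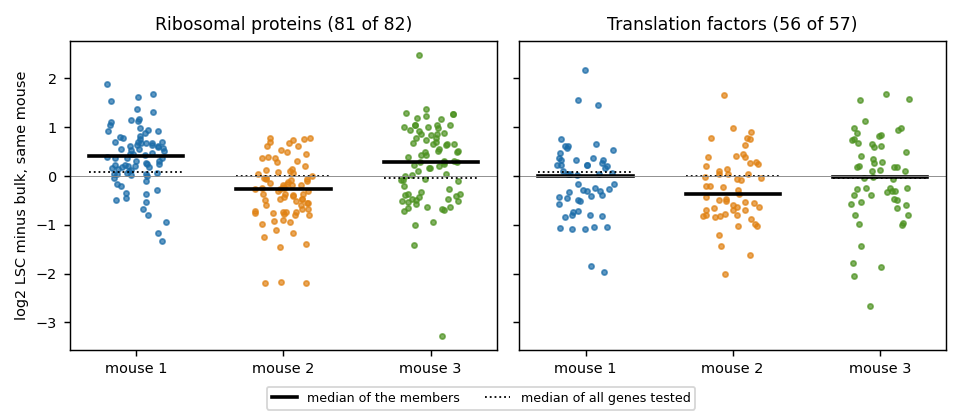
Log2 difference between LSC and bulk of the same mouse (y axis) for each ribosomal protein gene (left) and translation factor row (right) in mice 1 to 3 (x axis); thick lines are the medians of all 82 and 57 rows and dotted lines those of all genes tested. Ribosomal proteins lie mostly above 0 in mouse 1 (median 0.40) and mostly below 0 in mouse 2 (median -0.27); EIF3CL and RPL39L, with a library at 0 reads, are not drawn as points.

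The LSC library of mouse 2 was the lowest LSC library for 53 of the 82 ribosomal protein genes (64.6%), against 33.9% of all genes. Summed over the ribosomal protein genes, the level was 14787, 9672 and 13549 CPM in the LSC libraries of mice 1, 2 and 3, against 11630, 11566 and 12627 CPM in bulk. As a share of reads outside the MTRNR2L rows this was 2.46%, 1.90% and 2.49% in LSC against 1.98%, 2.23% and 2.06% in bulk. The bulk libraries were close to one another, and the LSC libraries lay on both sides of them. Among the LSC libraries, that of mouse 2 also had the lowest summed plasmacytoid dendritic marker level, 1476 CPM. The LSC libraries of mice 1 and 3 were at 2683 and 2713 CPM. IL3RA, which this sum includes, was likewise at its lowest LSC level in mouse 2. The part of these in the ribosomal protein levels was not tested. For translation factors the sum was 8460, 5735 and 6997 CPM in LSC against 8512, 7341 and 6861 CPM in bulk.

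Genes that act with this machinery were counted in 6 lists. Without the block 0 passed in limma in any list. Tested were 13 TOP messenger RNAs outside the RPS and RPL symbols, among them EIF4B, and 10 genes of termination, recycling and related steps. Further lists held 13 tested genes of the TOR and S6 kinase pathway and 9 of the eIF2 kinase stress response. The others were 22 cytosolic tRNA synthetase genes and 14 RNA polymerase I genes. An unadjusted p under 0.05 was found for 3, 3, 6, 1, 3 and 3 of them in the same order. Counting each gene once and leaving out EIF4B, this was 24.1% of 79 genes, against 20.2% of all genes, and with the block 12 of the 79 (15.2%) passed, against 16.0% of all genes. Of the TOP messenger RNAs 1 passed with the block, the poly(A)-binding protein gene PABPC1, at 1114, 726 and 801 CPM in LSC against 1436, 1423 and 1278 CPM in bulk (log2 change -0.67, limma adjusted p 0.214 and 0.0432). Of the genes of termination, recycling and related steps 2 were lower with the block, ABCF1 (-1.05, adjusted p 0.0371 with the block) and HBS1L (-0.75, 0.0479). Of the TOR and S6 kinase genes 2 were higher with the block. One was PDCD4, an inhibitor of eIF4A that S6 kinase marks for destruction, at 233, 193 and 203 CPM in LSC against 101, 124 and 107 CPM in bulk (0.92, adjusted p 0.0789 and 0.0177). The other was DDIT4, a stress-induced inhibitor of TOR, at 11.7, 36.5 and 4.47 CPM in LSC against 2.25, 5.27 and 0.531 CPM in bulk (2.75, adjusted p 0.150 and 0.00404). PDCD4 had no overlap between groups, while the groups of DDIT4 overlapped.

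Of the eIF2 kinase stress response genes 1 passed with the block, the heme-regulated kinase EIF2AK1, which was lower in LSC at 52.6, 55.7 and 28.9 CPM against 98.3, 108 and 60.5 CPM in bulk (log2 change -0.97, limma adjusted p 0.179 and 0.0168). Of the cytosolic tRNA synthetase genes 1 was higher with the block (MARS, 1.02, adjusted p 0.0260) and 2 were lower (FARSB, -1.27, 0.0181, and EPRS, -0.92, 0.0236). Of the RNA polymerase I genes, whose enzyme transcribes ribosomal RNA, 2 were higher with the block (CD3EAP and TAF1A, 1.15 and 1.08) and 1 was lower (TWISTNB, -1.06).

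In the MYC family, transcription factors that drive ribosome production in many cells, 1 of 8 genes was higher and 1 lower in LSC without the block. MYCL was at 19.3, 21.1 and 20.2 CPM in LSC against 4.64, 5.61 and 3.35 CPM in bulk (log2 change 2.19, SE 0.38, limma adjusted p 0.0161). MYC was at 18, 11.6 and 4.25 CPM in LSC against 88.2, 45.0 and 68.0 CPM in bulk (-2.75, SE 0.53, adjusted p 0.0235). Without the block the MYCL call was lost without LSC replicate 1 (adjusted p 0.0544), LSC replicate 3 (0.0576) or bulk replicate 1 (0.0502), and that of MYC without bulk replicate 1 (0.0925) or bulk replicate 3 (0.0528). Both were also lost without any single mouse (limma adjusted p 0.0705 to 0.172 for MYCL and 0.0574 to 0.127 for MYC). With the block both were kept without any single mouse, in fits that hold only 2 within-mouse differences per gene. For both genes all LSC libraries lay on one side of all bulk libraries. The same libraries showed ribosomal protein levels on both sides of the bulk levels, as given above. A relation of these levels to MYC or MYCL was not tested.

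In the authors' deposited table, in which the fold change is coded bulk minus LSC, 0 of the 139 rows had a false discovery rate under 0.05 and 7 had a p-value under 0.05. The share of all genes under these thresholds in that table is not given here, so the counts are not read as few or many. The lowest false discovery rate in the authors' deposited table was that of EEF2K, 0.271, with a log2 fold change of -1.41 in that coding.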

How the data were processed

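Sorted cells gave total RNA whose cDNA was amplified (NuGEN Ovation), per the labels' protocols. RSEM, Bowtie2, edgeR and hg19 are named without version or role in the submitters' processing notes. The species label is that of the host mouse, while the symbols are human. The authors' deposited values per library are log2 CPM, recognised by a floor of 0.0197 CPM common to all libraries. Reads were recovered from the steps above this floor. They were whole within 0.1 for 100% of the 11850 to 13327 values checked per library, while the highest read counts were not checked. Per the file headers, the deposited table also holds, for each gene, a log2 fold change, a mean log2 CPM, a likelihood ratio score, a p-value and a false discovery rate. How reads of near-identical genes were split, and whether strand was used, is stated in no source used here. The 6 sample columns each matched 1 label. PCR copies were not marked by molecular identifiers, so the read floors cover counting error only.

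The filter kept 13755 of 13892 genes (1 CPM or more in 3 or more libraries) and removed 137. The deposited log2 values of LSC and bulk were fitted with limma 3.58.1 (R 4.3.3; eBayes with trend; two-sided; no block), and p-values were adjusted by Benjamini-Hochberg at a threshold of 0.05. The study's design text takes both populations from each mouse, so the replicate number pairs the libraries. Deviations of same-numbered libraries from their group mean correlated at 0.33, 0.35 and 0.30 across genes. Results of the fit with the mouse as a block are printed where they alter a call or a count by over 1.5 times. Variance shares are sums of squares between populations and between mice as percentages of the total, added up over genes. Without the block the limma p-values rest on the spread of the libraries within each group. With the block they rest on how the LSC minus bulk difference varied from mouse to mouse. Both cover these 3 mice only. With the block and 1 mouse left out, 2 differences per gene remain, so the p-values lean on the spread that eBayes pools over genes. Alternatives were pseudocounts, filters, rescalings, voom on the recovered reads, the block, and leaving out libraries or mice.

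The genes, lists and tests were chosen with earlier results of these data known, and no list is tested as a set. Named are genes that passed either fit, the gene with the largest statistic of each role group, both genes of each pair, list genes that passed (cell type markers apart), and genes whose change ran against their role group by over 0.5 on the log2 scale. Other names (the genes with a high share of variance between mice, and those given for a large change or for groups that did not overlap) were chosen after their values were seen. A few genes meeting these criteria are not reported here. On simulated data for this comparison (13755 genes, of which 200 changed), 60% of changes of 1 and 100% of changes of 2 on the log2 scale were recovered, with 4 false calls. The simulated libraries had the same noise level for all genes, no difference between mice, and changes only in the better expressed genes. Recovery under the spread of the real libraries was not tested. No sequence or coordinate is printed, as the reference in use here was not human.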

Additional observations from a re-analysis of the deposited data

How the results depend on the processing

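Of the counts of calls, the pseudocounts moved only that of all genes lower in LSC (302 with 1 CPM and 280 with 5 CPM, against 183). Quantile normalization called 3 ribosomal protein genes and 1 translation factor higher, scaling outside the MTRNR2L rows 1 ribosomal protein gene, and voom 1 translation factor. With the mouse as a replicate block (pairing by mouse), 1135 genes were higher and 1060 lower, among them 8 and 1 ribosomal protein genes and 4 and 7 translation factors. Alternatives added after seeing the data combined the block with scaling outside the MTRNR2L rows (1252 and 945 genes, 8 ribosomal protein genes higher, 4 and 7 factors), with upper-quartile rescaling (1054 and 1193 genes, 8 and 3, 4 and 8) and with voom (1216 and 1217 genes, 9 and 3, 4 and 7). Leaving out 1 library or mouse without the block gave 37 to 346 genes higher and 0 to 169 lower, 0 to 1 ribosomal protein genes higher, 0 to 1 factors higher and 0 to 1 lower. With the block on 2 mice, also added after seeing the data, 386, 444 and 1747 genes were higher and 344, 296 and 1567 lower without mouse 1, 2 and 3, and 0 to 12 and 0 to 5 ribosomal protein genes and 1 to 4 and 1 to 10 factors were called. The median changes moved by less than the spread between mice. Some ratios changed sign when a mouse was left out, and ranged from -0.12 to 0.43 (RPL22L1 over RPL22), -2.78 to 1.05 (RPL39L over RPL39), -1.01 to 0.99 (RPL26L1 over RPL26, 0.039 with a pseudocount of 1 CPM), -0.35 to 0.89 (EIF4G3 over EIF4G1), -0.33 to 1.10 (EIF4G2 over EIF4G1) and -0.60 to 0.61 (EIF5A2 over EIF5A). RPL39L was 0.078 and 0.080 with pseudocounts of 1 and 5 CPM, 0.21 after quantile normalization, 0.29 with block and voom, 1.01 with the block without mouse 3, and -2.79 to 1.14 with a library or mouse left out. Log2 changes of RPL26L1 (-1.64 to 0.65), FAU (-0.14 to 0.83), GNB2L1 (up to 0.060) and RPL36AL (-0.074 to 0.74, and -0.015 without mouse 3) also changed sign in this way. The cause was not tested. Changes of 1 on the log2 scale were often missed in the simulated data, which held no difference between mice, and RPL39L, EIF4EBP1, EIF2B2 and EIF6 rest on few reads.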
